A study of Homo sapiens with 6 samples.

Results

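The human miRNA hsa-miR-941 was followed through 6 small RNA libraries of METTL1-depleted cells. Its row was taken by name from both deposited count tables, as 1 of the 2588 mature miRNAs they list. The cells were A549, which derive from a human lung adenocarcinoma, with an shRNA against METTL1 under doxycycline control. METTL1 is the methyltransferase that writes N7-methylguanosine (m7G) inside RNA. All 6 samples were labelled day 5 of doxycycline at 200 ng/ml, with 3 libraries of total RNA (the input) and 3 of RNA recovered by immunoprecipitation against m7G (m7G-RIP). Per the study's methods, the shRNA was delivered by lentivirus and selected with puromycin, so the cells were a pool rather than a clone. The culture text of the m7G-RIP samples describes the medium of the intestinal line Caco-2, while their titles and cell line labels give A549. Libraries from cells with METTL1, or from a control IgG, were not analysed here. The comparison therefore shows what the antibody recovered in knockdown cells and does not measure an effect of METTL1.

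miRNAs are cut from hairpin precursors by the nucleases Drosha and Dicer, and the mature strand guides Argonaute to mRNAs through its seed, the bases near its 5′ end. miR-941 is known as a miRNA of the human lineage, absent from other apes, whose hairpin lies in a tandem repeat of DNAJC5 that varies in copy number between people, and it has been linked to Hedgehog and insulin signalling. DNAJC5 encodes the cysteine string protein, a chaperone of synaptic vesicles.

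The mature sequence and the hairpins are shown because the count of miR-941 rests on a sequence that is present several times in the genome. They were taken from RefSeq (GRCh38.p14). In the mature sequence the capitals mark the seed, bases 2 to 8, and in the hairpins they mark the mature miRNA.
miR-941: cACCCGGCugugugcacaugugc
MIR941-1: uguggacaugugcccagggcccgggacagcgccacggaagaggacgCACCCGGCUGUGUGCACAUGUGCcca
MIR941-3: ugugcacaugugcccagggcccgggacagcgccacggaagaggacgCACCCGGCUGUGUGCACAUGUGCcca
MIR941-4 and MIR941-5 have the same hairpin sequence as MIR941-3. MIR941-1 differs from these 3 by the single substitution G5C, counted from 1 at the 5′ end of the hairpin and written with the base of MIR941-1 first. It lies outside the mature strand, which occupies the 3′ arm. The hairpin of MIR941-2 is named only.

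The 23-base mature sequence had 7 exact matches in GRCh38, on either strand of any sequence of the genome, and all 7 lay on the plus strand of chromosome 20 within 442 bases, at chr20:63919495-63919936. Of these matches, 5 are annotated as miR-941. MIR941-1 has its mature strand at chr20:63919495-63919517, MIR941-2 at chr20:63919551-63919573 and MIR941-3 at chr20:63919607-63919629. MIR941-4 has it at chr20:63919802-63919824 and MIR941-5 at chr20:63919914-63919936. The 2 matches without an annotated hairpin were at chr20:63919746-63919768 and chr20:63919858-63919880. Starts of neighbouring matches were 56 bases apart, except for 139 bases after MIR941-3. The annotated hairpins are 72 bases long, so the end of MIR941-1 overlaps the start of MIR941-2, and that of MIR941-2 the start of MIR941-3. All 7 matches lie in intron 1 of the canonical DNAJC5 transcript (DNAJC5-201, 5 exons, plus strand). They are exonic in DNAJC5-203, a transcript annotated as a target of nonsense-mediated decay, and they lie within the bounds of the lncRNA ENSG00000290226 on the same strand.

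**Figure D1:**
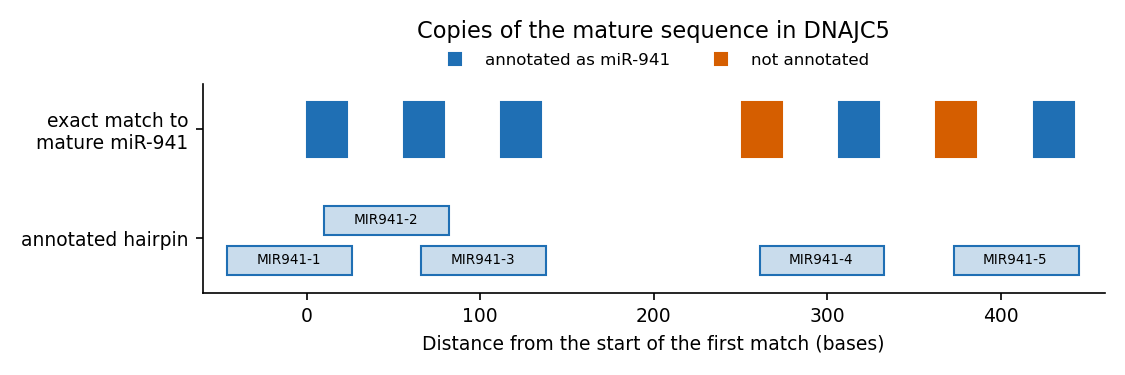
Map of the exact matches to mature miR-941 (upper boxes, 23 bases each) and of the annotated hairpins (lower boxes, 72 bases each) by distance in bases from the start of the first match. Of 7 matches, 5 are annotated and 2, lying after MIR941-3 and after MIR941-4, are not.

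The libraries of total RNA held from 9155690 to 10753443 miRNA counts and those of m7G-RIP from 2649238 to 3106556. The labels do not say whether replicates came from separate cultures, so p-values measure only the spread between these libraries. Libraries of the same group differed beyond counting error (chi-square per degree of freedom 22.2 to 112) and were kept as separate replicates. The miRNAs listed as markers of intestinal epithelium, for Caco-2, all had a count (8 of 8). Their summed level was 18370 to 18640 counts per 1000000 (CPM) in total RNA against 3832 to 4006 CPM in m7G-RIP. Of the 8 markers, 7 were tested and 5 (71.4%) were depleted in m7G-RIP, beside 29.2% of the 620 miRNAs tested. Most of the summed level in both groups was that of miR-192-5p, at 3534 CPM in m7G-RIP. In total RNA it had 21121 to 21591 CPM on the TMM scale described below, against 421 to 554 for the next, miR-194-5p. miR-429 was near the floor, at 0 to 5.87 CPM on that scale. A count of these markers does not by itself show which cells were present. Blood cell markers summed to 0.0930 to 0.390 CPM in total RNA, against 0 to 1.81 in m7G-RIP, with 3 of 5 at 0 in every library. The part of these cell types in the miR-941 result was not tested.

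By its undivided counts miR-941 was an abundant miRNA of both kinds of library, and it took a larger share of the counts in m7G-RIP. The total RNA libraries held 25150, 21080 and 22630 counts of it in replicates 1, 2 and 3, and the m7G-RIP libraries 11045, 9705 and 13730. As a share of all miRNA counts this was 2339, 2054 and 2472 CPM in total RNA, against 4169, 3512 and 4420 CPM in m7G-RIP. Every m7G-RIP library was above every total RNA library, and replicate 2 was the lowest of each group. The mean share was 2288 ± 213 CPM in total RNA against 4034 ± 469 CPM in m7G-RIP (SD, n = 3), a difference of 1745 CPM and a ratio of 1.76. An exact two-sided permutation test gave p = 0.1, the smallest that 3 against 3 libraries allow. Of the 620 miRNAs that passed the expression filter, 38.7% had all m7G-RIP libraries above all total RNA libraries on this scale. Counting error was small beside the spread between replicates. The lowest m7G-RIP share, that of replicate 2, was 0.351% of counts (exact Clopper-Pearson 95% interval 0.344 to 0.358%), and the highest total RNA share, that of replicate 3, was 0.247% (0.244 to 0.250%). These intervals take each count as independent and are too narrow if a read was counted at several copies. With multi-copy counts divided by the number of hairpins, the same libraries had 0.0892% (0.0853 to 0.0933%) and 0.0549% (0.0533 to 0.0565%).

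By rank within a library, which needs no scaling between libraries, miR-941 was number 33, 36 and 33 in total RNA and number 26, 29 and 25 in m7G-RIP, with 1 as the most abundant. The mean rank was 34.0 ± 1.73 in total RNA and 26.7 ± 2.08 in m7G-RIP (SD, n = 3; exact permutation p = 0.1). The m7G-RIP ranks did not overlap those of total RNA. In total RNA the miRNAs next above it in the order were miR-191-5p (2814 CPM) and miR-25-3p (2695 CPM). miR-221-3p (2270 CPM) tied with it at a mean rank of 34.0, and miR-99a-5p (2155 CPM) was next below. The libraries of the upper pair did not overlap those of miR-941, whereas those of miR-221-3p and miR-99a-5p did. In m7G-RIP its neighbours were miR-27b-3p (4637 CPM), miR-24-3p (4022 CPM), miR-192-5p (3534 CPM) and miR-10b-5p (3857 CPM). The CPM of each of these 4 overlapped that of miR-941, so the order there was within the spread of the libraries. These 4 neighbours in m7G-RIP were other miRNAs than those in total RNA. Of the total RNA neighbours, the log2 ratio of m7G-RIP over total RNA was 1.01 for miR-191-5p (edgeR adjusted p 0.000507) and -1.90 for miR-221-3p (edgeR adjusted p 2.75e-06). It was -2.07 for miR-99a-5p (5.77e-06) and -0.14 for miR-25-3p (0.266). All 4 m7G-RIP neighbours were depleted: miR-27b-3p (-2.18), miR-24-3p (-0.76), miR-192-5p (-2.87) and miR-10b-5p (-0.98), with edgeR adjusted p of 0.000643 or less. A rank thus depends, as a share does, on the other miRNAs of the library.

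The share of a miRNA depends on what the other miRNAs of the library do, and how much RNA was recovered is not known here. The ratio was therefore also estimated with TMM scaling, which sets the libraries on a common scale from the bulk of the miRNAs. TMM-scaled CPM of miR-941 were 2838, 2506 and 2975 in total RNA and 3253, 3047 and 3675 in m7G-RIP. The groups still did not overlap, as held for 29.5% of the 620 miRNAs in the same direction, but they lay closer together, at 2773 ± 242 against 3325 ± 320 (SD, n = 3), a ratio of 1.20. The log2 ratio was 0.26 (SE 0.11, 95% interval 0.0025 to 0.52) with an unadjusted p of 0.0483 and an adjusted p of 0.0815 in edgeR's quasi-likelihood test, so miR-941 was not called as enriched. By the same rule 23.5% of the tested miRNAs were enriched and 29.2% depleted. Over all 620 miRNAs the median log2 ratio was -0.074, which miR-941 exceeded by 0.34, and 56.9% of the tested miRNAs had a lower ratio than miR-941.

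**Figure D2:**
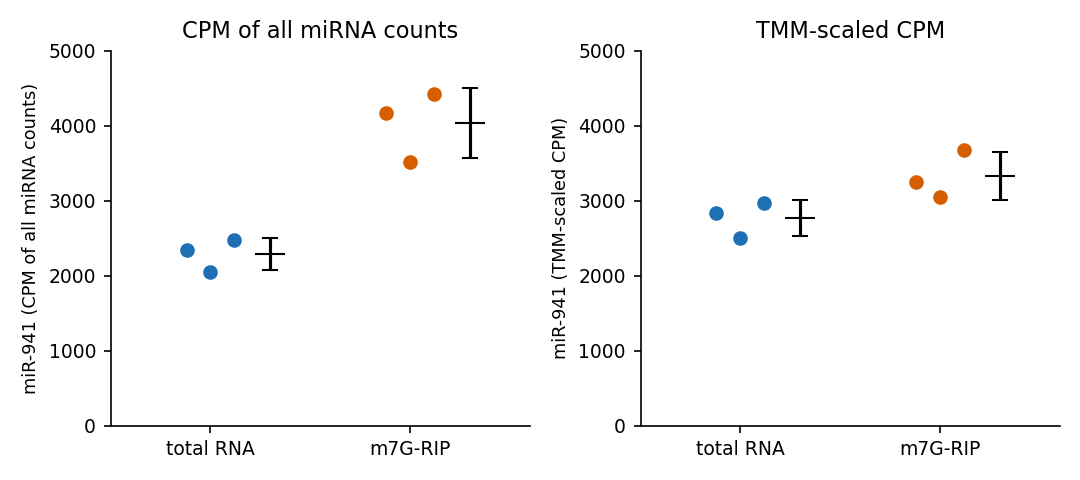
Level of miR-941 in each library as CPM of all miRNA counts (left) and as TMM-scaled CPM (right). Points are libraries, and horizontal lines with bars are means ± SD (n = 3); the m7G-RIP libraries lie above the total RNA libraries on both scales, with a ratio of means of 1.76 on the left and 1.20 on the right.

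Whether miR-941 was called depended on the scaling. With library size alone, the log2 ratio was 0.82 (edgeR adjusted p 0.000382), a call made for 34.8% of the tested miRNAs in that direction. That scaling raised the median over the 620 miRNAs by 0.55, and the distance of miR-941 from the median was then 0.34, as with TMM. With the 10 most abundant miRNAs left out of the library sizes, the log2 ratio was 0.72 (edgeR adjusted p 0.000626). DESeq2's Wald test, which the study's methods name for enrichment over input, was run here on the same 620 miRNAs. It gave 0.27 with an adjusted p of 0.0487, just past the threshold of 0.05, and called 25.8% of the tested miRNAs as enriched. Without m7G-RIP replicate 3 the TMM log2 ratio was -0.030 (edgeR adjusted p 0.875), without m7G-RIP replicate 1 it was 0.077 and without m7G-RIP replicate 2 it was 0.15. Leaving out total RNA replicate 2 gave 0.18. With no filter on low counts it was -0.011 (edgeR adjusted p 0.953). In those last 5 fits the number of miRNAs tested was 756, 773, 778, 594 and 1469 in place of 620. Over 17 alternatives the adjusted p ran from 0.000382 to 0.953, and 3 passed the threshold.

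**Figure D3:**
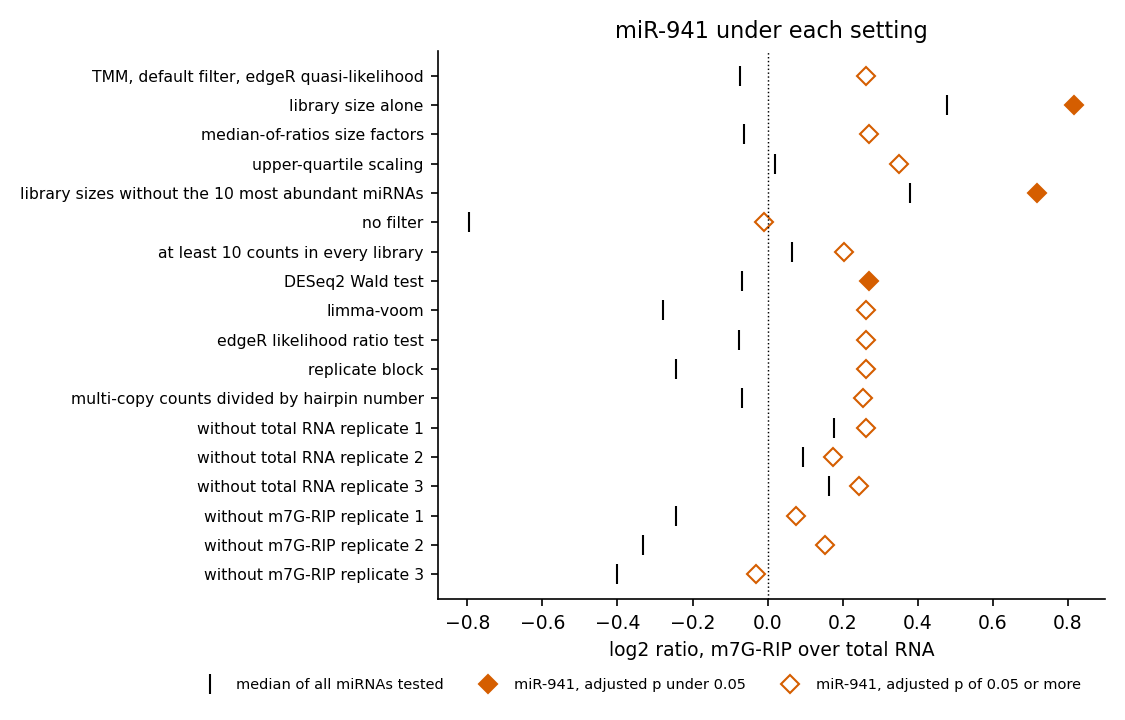
log2 ratio of miR-941 (diamonds, filled where the adjusted p was under 0.05) and median log2 ratio of all miRNAs tested (vertical ticks) under each setting. Filled diamonds are at 0.82, 0.72 and 0.27, and miR-941 lies right of the median in every setting, including the 2 with a ratio under 0.

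Against the miRNAs that the study follows, the ratio of miR-941 was small. let-7e-5p, which the study uses as an m7G-bearing miRNA, stood at a log2 ratio of 2.24 (edgeR adjusted p 2.36e-06), and miR-148a-3p, its miRNA without m7G, had -3.55 (edgeR adjusted p 2.16e-07). The study lists the m7G of let-7e-5p as METTL1-dependent, and all libraries here are of METTL1-depleted cells. How much of that m7G remained was not tested. The difference of miR-941 from let-7e-5p or miR-148a-3p was not tested.

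**Figure D4:**
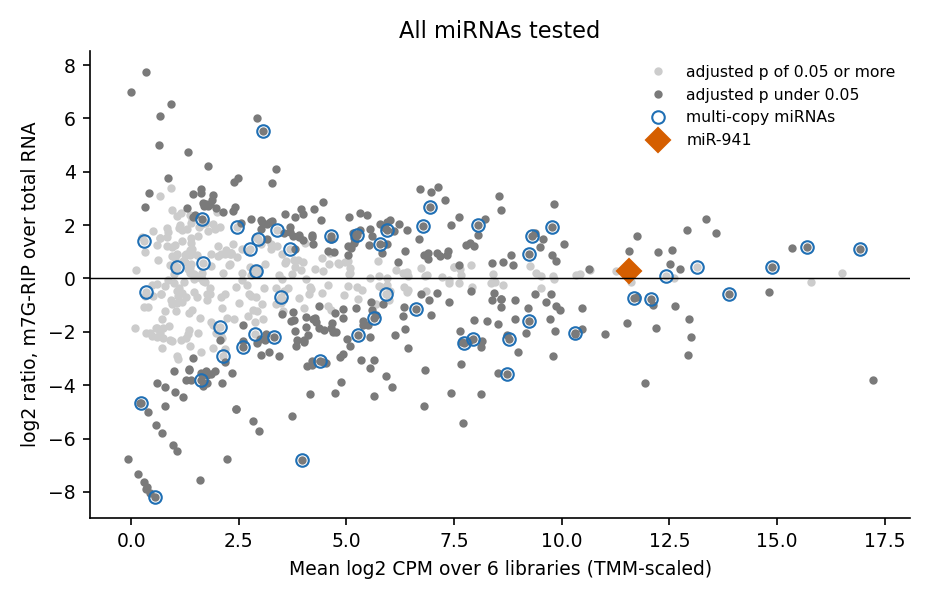
log2 ratio of m7G-RIP over total RNA against the mean TMM-scaled log2 CPM of 620 tested miRNAs, with calls in dark grey, multi-copy miRNAs ringed and miR-941 as a diamond. miR-941 lies at 0.26, close to the line of no difference, among the abundant miRNAs.

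All 6 counts of miR-941 were whole multiples of 5, the number of its annotated hairpins. Divided by 5 they were 5030, 4216 and 4526 in total RNA and 2209, 1941 and 2746 in m7G-RIP. None of the 6 counts (0) was a multiple of 7, the number of exact matches in the genome. Among 398 miRNAs with a single hairpin and on average 20 counts or more, 18.35% of 2322 nonzero counts were multiples of 5, and in none of them (0) were all counts multiples of 5. Of the 499 miRNAs of any copy number at that level, 2 had only multiples of 5. The other was miR-548h-5p, named after its values were seen, with 30, 110 and 35 counts in total RNA and 0, 0 and 10 in m7G-RIP. It had no match in the RefSeq table, so its number of hairpins is not given here. The only other name with 5 hairpins in the RefSeq table was miR-548f-3p, whose counts of 30, 22 and 23 in total RNA and 1, 0 and 0 in m7G-RIP were not all multiples of 5.

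**Figure D5:**
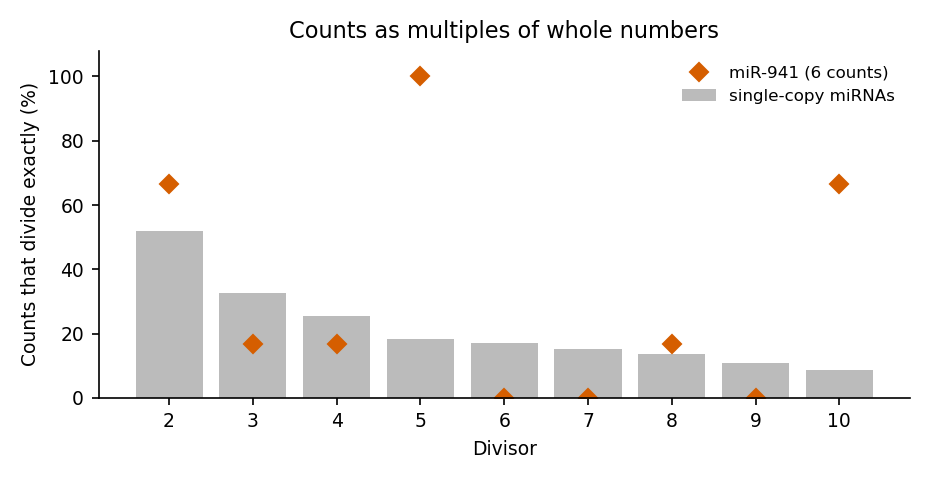
Percent of counts that divide exactly by each whole number from 2 to 10, for the 6 counts of miR-941 (diamonds) and for 2322 nonzero counts of single-copy miRNAs averaging 20 counts or more (bars). At 5 all miR-941 counts divide, against 18.35% of the single-copy counts.

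Other multi-copy miRNAs divided between those with and without this feature. Of 47 others at the same level, 20 had only multiples of their own number of hairpins in the RefSeq table and 27 did not. In 4 of the 27 the counts were all multiples of another number. In 3 of these, named after their values were seen, the copies were alike for 30 bases on both sides of the mature strand: miR-3180-3p (2 hairpins in the table, multiples of 3), miR-1244 (3 hairpins, multiples of 4) and miR-6511a-3p (3 hairpins, multiples of 4). For the opposite arms the table gives 3 hairpins of miR-3180-5p and 4 of miR-6511a-5p, and their counts were multiples of 3 and of 4. Per the study's methods the reads were counted on miRBase 22, and whether its hairpin numbers are those of RefSeq was not tested. Among the 18 others averaging 1000 counts or more, 2 had only multiples of their own number: miR-30c-5p (2 hairpins) and miR-9-5p (3 hairpins), which is known from neural development. The 2 sets differed in the sequence beside the mature strand. In the 20 with only multiples, a median of 30 bases on the 3′ side, the most that were compared, were the same in all copies, and 2 had fewer than 3. In the other 27 the median was 1 base and 21 had fewer than 3. Their mean counts differed as well, with medians of 96.2 and 3332. For miR-941, compared further out, the annotated copies were the same for 41 bases on the 5′ side and 21 bases on the 3′ side, and all 7 matches for 11 and 21 bases. How reads with several alignments were counted is not stated by the sources used here.

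With the counts of multi-copy miRNAs divided by their number of hairpins, miR-941 had a level of 511, 448 and 549.2 CPM in total RNA against 1085, 892 and 1159 CPM in m7G-RIP. Its rank was then 77, 84 and 75 in total RNA and 57, 65 and 57 in m7G-RIP. The division covered every multi-copy miRNA, including the 27 whose counts were not all multiples of their number of hairpins in the RefSeq table. Among these were miR-92a-3p, rank 1 in every m7G-RIP library, and let-7a-5p, so the totals behind the CPM changed as well. The ratio of mean CPM was 2.08 in place of 1.76, while the TMM-scaled log2 ratio was 0.25 (edgeR adjusted p 0.147). The level and rank of miR-941 therefore turned on this division and its TMM-scaled ratio moved by less than its SE.

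The other multi-copy miRNAs were examined as the class to which miR-941 belongs. Of 139 names, 82 had a count and 51 were tested, of which 15 were enriched (29.4%) and 19 depleted (37.3%), beside 23.5% and 29.2% of all tested miRNAs. Their median log2 ratio was 0.086 against -0.074. The log2 ratio of miR-92a-3p, of the miR-17-92 cluster, was 1.12 (edgeR adjusted p 5.33e-05), and let-7a-5p, a let-7 family member, had 1.19. miR-320b of the miR-320 family had a log2 ratio of 1.94. On the other side miR-30c-5p had -2.05, miR-9-5p -2.28 and miR-181a-5p -3.57. The ratio of miR-941 lay between these, and multi-copy miRNAs were found on either side of it.

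The miRNAs of the same end of chromosome 20 were scarce beside miR-941. Within 2000000 bases 13 other mature miRNAs are annotated, of which 11 had a count and 5 were tested. With edgeR's quasi-likelihood test none (0) was called, 0 had an unadjusted p under 0.05, and DESeq2, limma-voom and the likelihood ratio test also called 0. Over all tested miRNAs edgeR called 23.5% as enriched and 29.2% as depleted, but these 5 had low counts. The nearest tested was miR-1914-5p, 21575 bases away on the opposite strand, with 32, 3 and 14 counts in total RNA and 5, 22 and 16 in m7G-RIP. miR-1-3p, known from muscle, had 88, 79 and 69 counts in total RNA and 66, 260 and 2 in m7G-RIP, so its m7G-RIP libraries spanned its total RNA libraries. miR-1-3p and the miR-133a pair have hairpins elsewhere too, and their counts are uncertain as to place.

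The miRNAs whose pattern over the 6 libraries was most like that of miR-941 were sought among 305 others that averaged 100 counts or more. The measure was the Euclidean distance between TMM-scaled log2 CPM after centring each miRNA on its own mean. The nearest was miR-222-3p, a cluster mate of miR-221-3p, at a distance of 0.228, followed by miR-501-3p (0.263), miR-106b-3p (0.290), miR-3615 (0.293) and miR-1269b (0.298). miR-222-3p was enriched, with a log2 ratio of 0.36 (edgeR adjusted p 0.0174). It was no longer called without m7G-RIP replicate 1 (0.17), 2 (0.18) or 3 (0.13) and without total RNA replicate 1 (0.33) or 2 (0.27), nor with no filter on low counts (0.084). For miR-501-3p the log2 ratio was 0.35 (edgeR adjusted p 0.0660), and it was called in 5 alternatives: library size alone (0.90), the top 10 miRNAs left out (0.80), upper-quartile scaling (0.44), DESeq2 (0.36) and limma-voom (0.35). By Pearson correlation in place of distance, the 5 most alike were others, led by miR-671-3p (r = 0.934 over 6 libraries), and 0 of 5 were shared.

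The spread of miR-941 between replicates was somewhat larger than that of miRNAs of like level in the same libraries. Its coefficient of variation in CPM was 9.31% in total RNA, where the median of 25 miRNAs within 2-fold of its level was 7.13%. In m7G-RIP it was 11.6%, against a median of 10.1% for 20 miRNAs.

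The sequence of miR-941 was set beside those of the tested miRNAs because the study links m7G to guanosine-rich miRNAs and to G-quadruplexes, stacks of guanosines that can block processing of a hairpin. Of 2588 names, 2281 matched a mature sequence, and no other name (0) shared the seed of miR-941. Its 23 bases hold 7 G (30.4%, against a median of 27.8% in 557 tested miRNAs with a sequence) and 8 C (34.8%, against 22.7%), so it is set apart more by cytosine than by guanosine. Across the 557 miRNAs G content and the log2 ratio had a Pearson r of 0.41 and a Spearman rho of 0.436. For C content r was -0.0912 and rho -0.188, for A -0.212 and -0.232, and for U -0.196 and -0.223. These are descriptions across miRNAs of the same 6 libraries, which are not independent replicates. Within 2 G per 23 bases of miR-941 lay 288 of the 557 miRNAs, a wide set. Their median log2 ratio was -0.49 (quartiles -1.86 to 0.66), so the 0.26 of miR-941 lay within their middle range. The longest run of G was 2 in the mature strand and 3 in the hairpin, as the sequences printed above show.

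None of the 4 miR-941 hairpins searched (MIR941-2 was left out) held a G-quadruplex motif, sought on the transcribed strand as 4 runs of at least GG or GGG, separated by loops of 1 to 7 bases. The GG form was present in 29.7% of the 414 hairpins of tested miRNAs and the GGG form in 2.42%. No match says only that these letters are not in the hairpins searched. The largest G-score of a 20-base window, which rises with runs of G and falls with runs of C, was 0.55 in each of these 4 hairpins, against a median of 0.85 over the 414. It was 1.1 in the let-7e hairpin, which held the GG form, and 0.3 in that of miR-148a. The predicted minimum free energy (RNAfold) was -36.8 kcal/mol for MIR941-1 and -40.3 kcal/mol for MIR941-3, MIR941-4 and MIR941-5. Per base this was -0.511 and -0.560, below the median of -0.462, and 67.4% and 78.5% of the hairpins were less stable.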

How the data were processed

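The authors deposited, for each mature miRNA, raw read counts in 3 total RNA and 3 m7G-RIP libraries. Per the study's methods, STAR was used for end-to-end alignment to GRCh38, with 1 mismatch and up to 10 locations allowed, and reads were summarised with featureCounts on mature miRNAs of miRBase 22, while the submitters' processing notes name Trimmomatic, Bowtie2 and featureCounts. How reads at several locations were counted is not given in the sources used here. All 6 count columns were used. The reads were PCR copies with no molecular identifiers, so intervals cover counting error only.

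The test was that of edgeR 4.0.16 under R 4.3.3 (robust quasi-likelihood F test, TMM scaling, default filter by group, no replicate block), with p-values adjusted by the Benjamini-Hochberg method over 620 miRNAs and a threshold of 0.05. CPM are counts per 1000000 miRNA counts. log2 CPM used a prior count of 2. For shares and ranks, exact two-sided permutation tests were run in scipy 1.17.1. Alternatives used DESeq2 1.42.0 and limma 3.58.1, other scalings and filters, division of multi-copy counts by copy number, a replicate block, and fits with each library left out. The code was tested on simulated counts. Hairpins were folded with RNAfold 2.7.2. Mature sequences and hairpin numbers came from RefSeq, gene models from GENCODE release 44 (GRCh38), and matches from a search of the genome of that build.

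Samples were grouped by their titles. miR-941, the lists and the naming rule were chosen with earlier results of these data known. By that rule the miRNAs named were miR-941, its 5 nearest in pattern, its neighbours in rank, miRNAs sharing its seed, multi-copy miRNAs averaging 1000 counts or more, detected chromosome 20 neighbours, and 4 miRNAs named by the study or by earlier results. The muscle markers summed to 7.54 to 9.65 CPM in total RNA and 0.644 to 135 CPM in m7G-RIP, and the nerve markers to 411 to 502 and 120 to 150 CPM.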

Additional observations from a re-analysis of the deposited data

How the results depend on the processing

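The log2 ratio of miR-941 (0.26, not called) passed the threshold with library size alone (0.82), with the top 10 miRNAs left out of the library sizes (0.72) and with DESeq2 (0.27). It turned below 0 with no filter (-0.011), and with single libraries left out it ran from -0.030 to 0.26. The first 2 of these scalings move all miRNAs alike, and miR-941 exceeded the median by 0.34 in both. With no filter and without m7G-RIP replicate 3 the medians were -0.80 and -0.40, which miR-941 exceeded by 0.79 and 0.37. Other named miRNAs were lower there too. In these 2 fits miR-92a-3p had 0.85 and 0.81 in place of 1.12, and miR-30c-5p -2.33 and -2.30 in place of -2.05. These fits tested other numbers of miRNAs, and the cause of the changes outside the first 2 scalings was not tested. The remaining alternatives kept the direction of miR-941 and its side of the threshold.

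Replicate numbers were not treated as pairs, because same-numbered libraries had correlated deviations from their groups of only -0.0433, -0.101 and 0.0641. With the replicate number as a block, the log2 ratio was 0.26 (edgeR adjusted p 0.0673). In that fit 14 of the 51 tested multi-copy miRNAs were enriched and 20 depleted, beside 122 and 175 of all 620 miRNAs tested. The paired differences of 1745 CPM and -7.33 ranks had an exact sign-flip p of 0.25, the smallest 3 pairs allow.

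Enriched multi-copy miRNAs numbered 12 to 19 and depleted ones 14 to 24 over the alternatives. Over all miRNAs tested, which numbered 359 to 1469, enriched calls ran from 116 to 216 and depleted calls from 133 to 245. The counts of multi-copy miRNAs are therefore not read as particular to that class. The share difference ran from 1552 to 2006 CPM and the rank difference from -8.50 to -6.33 with single libraries left out. On chromosome 20 the window of 1000000 bases held 2 tested miRNAs and that of 5000000 bases the same 5 as the main window. Both gave 0 calls, beside 23.5% enriched and 29.2% depleted over all tested miRNAs. Neither window held a tested miRNA beyond those 5, so neither could add a call. Of 204 results for 12 other named miRNAs, 193 kept direction and call, 6 lost a call, 5 gained one and 0 reversed. Groups of 3 libraries were not tested for outlying samples, and the exact tests could not reach 0.05.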
